A study of Mus musculus with 8 samples.

Results

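AP-1 is a family of dimeric transcription factors of the basic leucine zipper (bZIP) class, and 9 of its genes were followed here in induced regulatory T cells (iTreg): Jun, Junb and Jund of the Jun family, Fos, Fosb, Fosl1 and Fosl2 of the Fos family, and Batf and Batf3 of the BATF family. They were chosen by gene symbol from these 3 families, and all 9 were found among the 23361 genes in the expression table. Of the members, 7 had a mean level of at least 1 FPKM (fragments per kilobase of exon, scaled to the mapped fragments of the library) and were tested with the 10467 genes that passed this filter, while Fosl1 and Batf3 lay under it. RNA sequencing had been performed on 4 libraries of Nrp-1+ and 4 libraries of Nrp-1- iTreg, in a study that asks how iTreg with and without the surface receptor neuropilin-1 (Nrp-1) differ.

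Both groups came from wild type Foxp3-RFP reporter mice, in which cells that express Foxp3, the lineage factor of regulatory T cells, carry a red fluorescent protein. Per the study's methods, the mice were young adult males on the B6 background. Naive splenic CD4+ T cells had been cultured with anti-CD3/CD28 beads, IL-2 at 50 U/ml and TGF-β at 2 ng/ml per the labels, while the study's methods give another amount of IL-2, by weight. The labels give 3 days of culture in the protocol and day 5 as the time, and the study's methods give a sort after 3 days. Living CD4+ Foxp3-RFP+ cells were then divided by Nrp-1, so the groups differ by a sorting gate and share genotype, culture and reporter. The libraries are labelled as biological replicates, but nothing says that they came from separate mice or cultures, so the p-values below measure the spread between these libraries. In sorted bulk samples, fewer cells that express a gene and less RNA per cell cannot be told apart.

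In the biology of T cells, Jun proteins pair with each other or with Fos proteins and bind DNA at AP-1 sites and at cAMP response elements (CRE). Fos proteins cannot pair with themselves and need a Jun partner. BATF proteins pair with Jun proteins but lack a domain that activates transcription, and together with IRF4 or IRF8 they bind composite AP-1/IRF elements. Signals from the T cell receptor raise several of these genes within minutes as immediate early genes, and BATF, JUNB and IRF4 are known for roles in effector regulatory T cells and in Th17 cells.

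The sort and the cell type were first checked. Nrp1 averaged 21.5 ± 0.709 FPKM in the Nrp-1+ libraries (SD, n = 4, as for all errors of means below) against 4.95 ± 0.262 FPKM in the Nrp-1- libraries. Foxp3 was 116 ± 3.72 FPKM in Nrp-1+ and 108.8 ± 1.20 FPKM in Nrp-1- iTreg, and the 5 T cell markers found in the table (Cd3e, Cd3d, Cd4, Foxp3 and Il2ra) summed to between 1338 and 1420 FPKM in every library. These markers did not move together. In the limma test below, Il2ra (265.5 ± 4.96 against 227.9 ± 3.58 FPKM) and Foxp3 were called higher in Nrp-1+ iTreg. Cd3d was called lower (436.8 ± 7.78 against 496.4 ± 22.6 FPKM), and Cd3e and Cd4 were not called. The call of Foxp3 held in 16 of 24 alternatives. The defining markers of B cells (Ms4a1), CD8+ T cells (Cd8a), myeloid cells (Lyz2, Csf1r, Cd14) and NK cells (Ncr1) had means under 0.1 FPKM over all 8 libraries, with Lyz2 at 0.0569 FPKM in Nrp-1+ and 0.132 FPKM in Nrp-1- iTreg, but other markers of the same lists were higher. Cd8b1, Itgam, Cd79b and Klrd1 passed the filter. Cd8b1 was called lower in Nrp-1+ iTreg (7.86 ± 0.742 against 10.0 ± 0.935 FPKM) and Itgam higher (6.70 ± 0.252 against 5.56 ± 0.154 FPKM). These 2 genes made up nearly all of the CD8 and myeloid sums below. Lyz2, Csf1r and Cd14 had lower means in Nrp-1+ iTreg, opposite to Itgam. The B cell receptor genes Cd79b and Cd79a were 5.09 ± 0.212 and 0.589 ± 0.201 FPKM in Nrp-1+ and 4.58 ± 0.762 and 0.390 ± 0.170 FPKM in Nrp-1- iTreg, and Itga2 of the NK list averaged 0.745 FPKM over all libraries. Whether other cells bear on the AP-1 genes was not tested. The summed levels of 3 of these lists were 7.10 to 8.78 FPKM in Nrp-1+ and 9.33 to 11.3 FPKM in Nrp-1- iTreg for the 2 CD8 markers, 6.46 to 7.22 and 5.41 to 6.24 for the 6 myeloid markers, and 3.96 to 5.20 and 4.73 to 5.75 for the 4 NK markers. All 6 proliferation genes examined (Mki67, Top2a, Cdk1, Ccnb1, Plk1, Aurkb) were higher in Nrp-1+ iTreg, with a summed level of 679 to 711 FPKM against 353 to 360 FPKM and a median log2 fold change of 0.92, and whether this bears on the AP-1 genes was not tested. Depth per library is not given with FPKM values, but the steps between low values put the 8 libraries within 0.810 to 1.24 of the depth of the first.

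Junb, Jund and Fosb were higher in Nrp-1+ iTreg, Batf was lower, and Jun, Fos and Fosl2 did not pass the test. The called differences were small, between -0.12 and 0.16 on the log2(FPKM + 1) scale. In the limma test with Benjamini-Hochberg adjustment, 4 of the 7 tested members passed an adjusted p of 0.05, which is 57.1% of them, against 40.9% of all genes tested. The count of 4 fell to between 1 and 3 when any 1 of the 8 libraries was left out, and to 0 under 1 form of a correction for GC content and length. The 3 members called higher stand beside 20.9% of all genes, and the 1 member called lower beside 20%. The median size of the log2 fold change was 0.10 over the 7 members, 0.12 over all genes tested and 0.22 over all genes called. The libraries of the 2 groups did not overlap for Junb and Fosb, 2 of the 7 tested members, against 39.5% of all genes tested. Counting the 2 genes under the filter, the groups did not overlap for 3 of the 9 members, the third being Batf3, against 27.9% of the 16289 genes detected in at least 1 library. Nothing particular to the AP-1 genes is read from these shares.

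**Figure D1:**
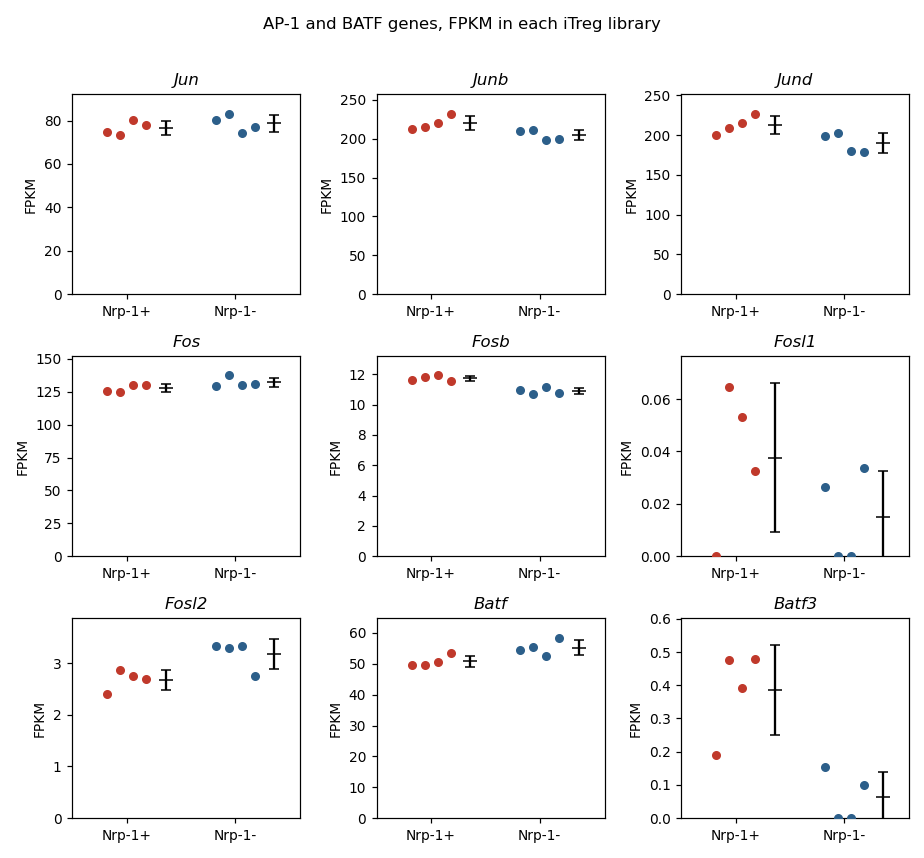
FPKM of each of the 9 genes (vertical axes, each from 0) in the 4 Nrp-1+ iTreg libraries (red) and the 4 Nrp-1- iTreg libraries (blue), with the mean and SD of each group in black, error bars ending at 0 where they would pass it. The groups do not overlap for Junb, Fosb and Batf3, and Junb and Jund are the highest of the 9 genes.

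FPKM is a level per length, so the genes can be ranked against each other. The order of the mean levels was Junb, Jund, Fos, Jun, Batf, Fosb, Fosl2, Batf3 and Fosl1. Each gene was above the next in 8 of 8 libraries, except that Batf3 was above Fosl1 in 6 of 8. Junb and Jund were the closest neighbours, with Junb 1.02 to 1.12 times Jund within a library. Among the 10467 genes tested, the mean level of Junb was higher than that of 95.8%, that of Jund than 95.6%, Fos 93.1%, Jun 88.2%, Batf 82.4%, Fosb 42.4% and Fosl2 12.7%.

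The Jun family supplies the partner that Fos and BATF proteins need. Jun, the founding member, lies on chromosome 4 and has a single exon. Junb and Jund, which often activate less strongly than Jun, lie on chromosome 8. The 250 bases before the RefSeq start sites of Jun and Junb (RefSeq, GRCm38.p6, minus strand of chr4:95052223-95052472 and of chr8:84978749-84978998) are shown because the first is known to be bound by Jun proteins themselves and the second belongs to the Jun gene whose groups did not overlap. Capitals mark TGACATCA, the Jun-type site of the Jun promoter, and TGACG, the first 5 bases of a CRE.
Jun: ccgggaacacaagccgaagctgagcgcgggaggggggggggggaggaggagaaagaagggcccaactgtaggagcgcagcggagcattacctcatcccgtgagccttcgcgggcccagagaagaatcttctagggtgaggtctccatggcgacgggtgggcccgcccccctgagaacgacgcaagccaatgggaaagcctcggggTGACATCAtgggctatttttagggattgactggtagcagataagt
Junb: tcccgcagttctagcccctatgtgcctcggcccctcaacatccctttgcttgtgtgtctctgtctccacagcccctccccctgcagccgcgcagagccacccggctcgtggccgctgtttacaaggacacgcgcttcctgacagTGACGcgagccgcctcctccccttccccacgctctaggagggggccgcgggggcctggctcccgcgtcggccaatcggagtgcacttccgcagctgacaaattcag
The Jun-type site lay 45 to 38 bases before the start of Jun, and these 8 letters occur on either strand in 2.93% of the 32817 mouse windows of this length. In Junb, TGACG lay 106 to 102 bases before the start. The window of Jund is not shown, since the RefSeq start used for it lies upstream of the start in GENCODE.

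Jun did not pass the test. Its levels were 74.9, 73.3, 80.1 and 78.1 FPKM in Nrp-1+ replicates 1 to 4 and 80.2, 83.3, 74.1 and 77.1 FPKM in Nrp-1- replicates 1 to 4. The groups overlapped over most of their range, with means of 76.6 ± 3.05 and 78.7 ± 3.95 FPKM. The log2 fold change was -0.04 (95% interval -0.13 to 0.06, adjusted p = 0.506), and no alternative among 24 gave a call. With 1 library left out, the log2 fold change lay between -0.07 (without Nrp-1- replicate 3) and -0.01 (without Nrp-1- replicate 2).

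Junb was 213, 215, 220.2 and 232 FPKM in Nrp-1+ and 210.0, 212, 199 and 199.97 FPKM in Nrp-1- iTreg. Every Nrp-1+ library was above every Nrp-1- library, by a narrow margin between the lowest of the former and the highest of the latter. The means were 220.2 ± 8.56 and 205 ± 6.62 FPKM, 7.36% higher in Nrp-1+ iTreg, with a log2 fold change of 0.10 (SE 0.03, 95% interval 0.02 to 0.18, adjusted p = 0.0455) and p = 0.0286 in the exact two-sided permutation test of the means, the smallest p that 4 against 4 libraries allow. The call was lost without Nrp-1+ replicate 2, 3 or 4 and without Nrp-1- replicate 1, 3 or 4 (adjusted p = 0.0502 to 0.110), and it was lost with no filter (0.0642), quantile normalization (0.107), eBayes without trend (0.0604), the replicate number as a block (0.122) and the 4 corrections for GC content and length that kept short RNA genes (0.142 to 0.245).

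Jund was 199.7, 209, 216 and 226 FPKM in Nrp-1+ and 199, 202, 179.6 and 179.1 FPKM in Nrp-1- iTreg. Nrp-1- replicate 2 reached above the lowest Nrp-1+ library, replicate 1, and the other 3 Nrp-1- libraries lay below all Nrp-1+ libraries. The means were 213 ± 11.2 and 189.9 ± 12.2 FPKM, 11.9% higher in Nrp-1+ iTreg, with a log2 fold change of 0.16 (SE 0.05, 95% interval 0.04 to 0.29, adjusted p = 0.0402, exact permutation p = 0.0571). The call was lost without Nrp-1+ replicate 2, 3 or 4 and without Nrp-1- replicate 3 or 4 (adjusted p = 0.0649 to 0.0983), with no filter (0.0641), with a block for the replicate number (0.114) and under 2 of the 4 corrections just named (0.0540 and 0.0610). Jund has the most G and C in its transcript of all 9 members, 67.1%, above 99.8% of the genes tested, followed by Junb with 62.6%, above 98.8%. The log2 fold change of Jund moved between 0.25 and 0.10 with the form of a correction for GC content and length.

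Within the Jun family, Jund had a larger share and Jun a smaller one in Nrp-1+ iTreg. Jun held 15.05 ± 0.469% of the summed FPKM of the family in Nrp-1+ and 16.6 ± 0.263% in Nrp-1- iTreg, Jund held 41.7 ± 0.525% and 40.1 ± 0.702%, and Junb held 43.2 ± 0.414% and 43.3 ± 0.668%. The shares of Jun and Jund did not overlap between the groups, and those of Junb did. The sum of the family overlapped, at 487 to 536 FPKM in Nrp-1+ and 453 to 497 FPKM in Nrp-1- iTreg. The ratio of Jund to Jun was 2.66, 2.85, 2.70 and 2.89 in Nrp-1+ and 2.48, 2.43, 2.42 and 2.32 in Nrp-1- iTreg. The ratio of Junb to Jund overlapped, at 1.02 to 1.07 and 1.05 to 1.12, and so did that of Jun to Fos, at 0.589 to 0.614 and 0.570 to 0.618. Over all 21 pairs of the 7 tested members, the ratio did not overlap between the groups in 11 (52.4%) and overlapped in 10. Over all pairs of the 10235 tested genes with values above 0 in every library, it did not overlap in 40.5%. These ratios set the same values against each other within a library, so they are descriptions and carry no test.

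**Figure D2:**
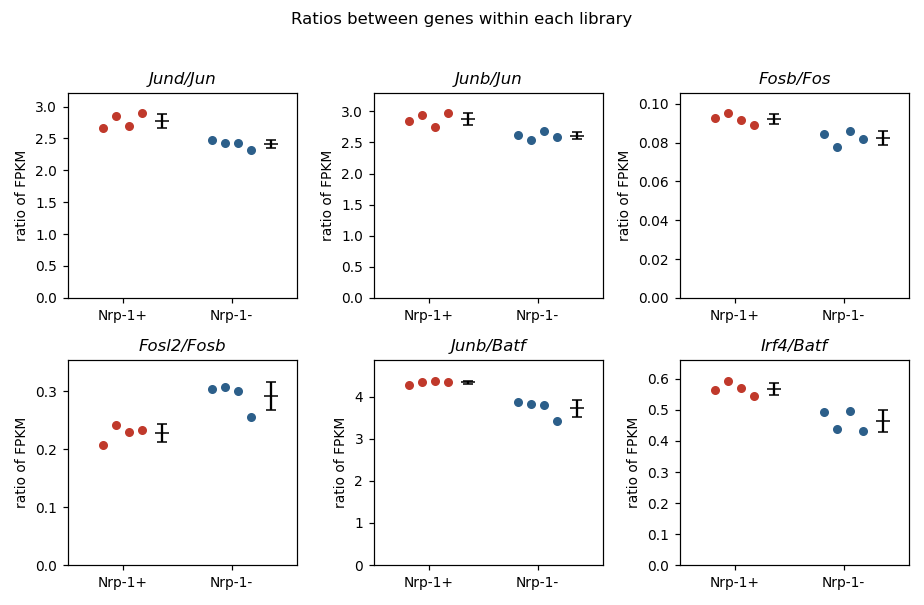
Ratio of the FPKM of 2 genes within each library (vertical axes from 0, no unit) for Nrp-1+ iTreg (red) and Nrp-1- iTreg (blue), with the mean and SD of each group in black. The 6 ratios were picked from those that do not overlap between the groups, and Fosl2/Fosb is the one of them that is lower in Nrp-1+ iTreg.

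Some members overlap other genes on the opposite strand, namely Jun (Junos), Junb (Prdx2), Jund (Gm11175) and Fosl1 (Ccdc85b). The study's methods and the labels name different library kits and neither says whether strand was used in counting, so reads of these pairs cannot be told apart. Prdx2, a peroxidase gene, was 165 ± 5.09 FPKM in Nrp-1+ and 159 ± 5.95 FPKM in Nrp-1- iTreg and was not called (log2 fold change 0.05, adjusted p = 0.243).

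The Fos family contributes the partners that form the most stable AP-1 dimers. Fos and Fosb are the immediate early members with a domain that activates transcription, and Fosl1 and Fosl2 lack it. Fos lies on chromosome 12 and Fosb on chromosome 7. The upstream window of Fos (RefSeq, GRCm38.p6, plus strand of chr12:85473640-85473889) is shown because Fos was the highest member of the family. Capitals mark TGACG and the TATA box TATAAA.
Fos: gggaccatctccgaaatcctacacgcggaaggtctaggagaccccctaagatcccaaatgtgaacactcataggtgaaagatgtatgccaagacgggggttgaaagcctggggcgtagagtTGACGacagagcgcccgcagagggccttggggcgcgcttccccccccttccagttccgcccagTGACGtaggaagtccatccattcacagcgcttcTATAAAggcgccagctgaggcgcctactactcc
In Fos, TGACG lay 129 to 125 and 66 to 62 bases before the start and TATAAA 33 to 28 bases before it. In Fosb, TGACG lay 60 to 56 bases before the RefSeq start used, but 73 of the 250 bases of that window, TGACG among them, lie inside the gene as RefSeq spans it, so the window is not shown.

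Fos was 125.8, 124.5, 130.4 and 130.0 FPKM in Nrp-1+ and 129.7, 137.5, 130.0 and 131.1 FPKM in Nrp-1- iTreg. The groups overlapped, and Nrp-1- replicate 2 stood above the rest. The means were 127.7 ± 2.96 and 132.1 ± 3.67 FPKM, with a log2 fold change of -0.05 (95% interval -0.11 to 0.01, adjusted p = 0.184) and no call in any of 24 alternatives. With 1 library left out, it lay between -0.06 (without Nrp-1+ replicate 3) and -0.03 (without Nrp-1- replicate 2).

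Fosb was 11.7, 11.9, 11.9 and 11.6 FPKM in Nrp-1+ and 10.9, 10.7, 11.1 and 10.7 FPKM in Nrp-1- iTreg. The groups did not overlap, and Fosb had the smallest spread relative to its mean of the 9 members in each group. Its means of 11.8 ± 0.163 and 10.9 ± 0.204 FPKM differed by 8.0%, with a log2 fold change of 0.10 (SE 0.02, 95% interval 0.05 to 0.16, adjusted p = 0.0109, exact permutation p = 0.0286). The call held without each of the 8 libraries in turn (adjusted p = 0.0142 to 0.0342) and in 19 of 24 alternatives. It was lost with quantile normalization (0.0565) and with the 4 corrections for GC content and length that kept short RNA genes (0.128 to 0.241).

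Fosl2 was 2.40, 2.86, 2.75 and 2.70 FPKM in Nrp-1+ and 3.32, 3.29, 3.34 and 2.74 FPKM in Nrp-1- iTreg. Nrp-1- replicate 4 lay among the Nrp-1+ libraries, and the other 3 Nrp-1- libraries lay above all of them. The log2 fold change of -0.18 (SE 0.07, 95% interval -0.33 to -0.03) missed the threshold at an adjusted p of 0.0593, with an exact permutation p of 0.0857. Without Nrp-1- replicate 4 it was -0.23, with an adjusted p of 0.0174 in the limma fit, and without each of the other 7 libraries it was not called (adjusted p = 0.0644 to 0.133).

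Fosl1 was hardly detected. It was listed at 0, 0.0646, 0.0533 and 0.0326 FPKM in Nrp-1+ iTreg and at 0.0262, 0, 0 and 0.0338 FPKM in Nrp-1- iTreg. Multiplied by the relative depth of their libraries, these values are whole multiples of 1 step within a tolerance of 0.1. Taking a step as 1 fragment, these are 0, 2, 2 and 1 fragments against 1, 0, 0 and 1. The ratio of the sums, 5 against 2, was 2.40 after depth (exact 95% interval 0.394 to 25.3, counting error only), so no difference was detectable at this depth.

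Fos made up 89.8 ± 0.302% of the summed FPKM of its family in Nrp-1+ and 90.4 ± 0.398% in Nrp-1- iTreg, and these shares overlapped. Fosb held 8.03 to 8.51% in Nrp-1+ and 7.06 to 7.72% in Nrp-1- iTreg, which did not overlap. The ratio of Fosl2 to Fosb was 0.206 to 0.242 in Nrp-1+ and 0.255 to 0.307 in Nrp-1- iTreg.

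**Figure D3:**
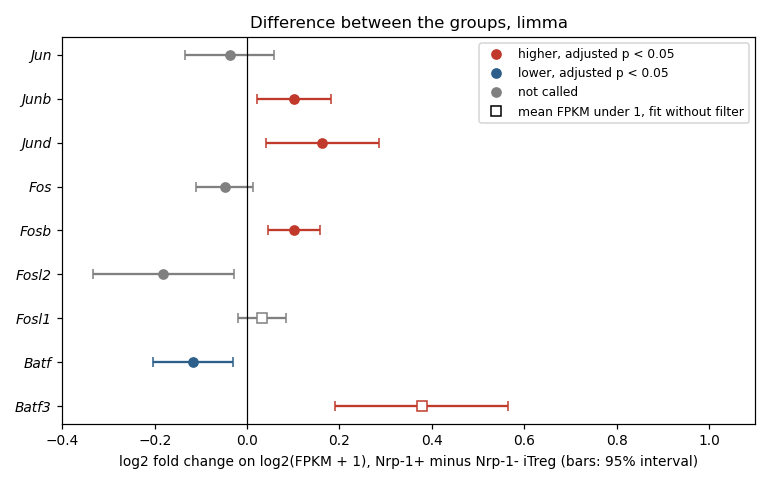
Log2 fold change of each gene on the log2(FPKM + 1) scale (horizontal axis), Nrp-1+ minus Nrp-1- iTreg, with its 95% interval from limma, for 7 tested genes (circles) and for Fosl1 and Batf3 from the fit without the filter (squares). Junb, Jund, Fosb and Batf3 lie above 0 and Batf below it, the interval of Fosl2 also lies below 0 although it was not called, and the intervals of Jun, Fos and Fosl1 include 0.

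BATF proteins compete with Fos proteins for Jun partners and recruit IRF4 and IRF8. Batf lies on chromosome 12, where the stretch from the start of Fos over Jdp2 to the end of Batf spans 235 kb, and Batf3 lies on chromosome 1. The first 199 bases of the window before Batf (RefSeq, GRCm38.p6, plus strand of chr12:85686470-85686668) are shown because Batf was the member called lower, with TGACG in capitals 98 to 94 bases before the RefSeq start. The other 51 bases lie in an exon of Batf in GENCODE.
Batf: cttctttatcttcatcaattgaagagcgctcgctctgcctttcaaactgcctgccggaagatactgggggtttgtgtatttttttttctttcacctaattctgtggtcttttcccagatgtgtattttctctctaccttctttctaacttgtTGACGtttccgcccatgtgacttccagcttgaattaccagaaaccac
TGACG was added to the search after the windows of the members had been read. It was found on either strand in 4 of the 8 windows (Junb, Fos, Fosb and Batf) and in 17.7% of all 32817 windows, and it lies within the full CRE TGACGTCA. TATAAA was found in 12.4% of all windows. The AP-1 site TGACTCA (4.46% of all windows), the CRE TGACGTCA (1.55%) and the CArG box bound by SRF (1.47%) were in none of the 8. Sites more than 250 bases upstream were not searched, so these promoters may hold such sites farther out. Genes called higher (Junb, Fosb), called lower (Batf) and not called (Fos) all held TGACG. The windows of Fosl2 and Batf3 lie with 250 and 163 of their bases in annotated exons, so these counts depend on the start sites used.

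Batf was 49.7, 49.5, 50.4 and 53.4 FPKM in Nrp-1+ and 54.3, 55.3, 52.5 and 58.4 FPKM in Nrp-1- iTreg. Of the Nrp-1+ libraries, replicate 4 alone reached above the lowest Nrp-1- library, replicate 3. The means were 50.8 ± 1.81 and 55.1 ± 2.44 FPKM, and Batf fell by 7.92% in Nrp-1+ iTreg, with a log2 fold change of -0.12 (SE 0.04, 95% interval -0.20 to -0.03, adjusted p = 0.0377, exact permutation p = 0.0571). The call was lost without Nrp-1+ replicate 1, 2 or 3 and without Nrp-1- replicate 1, 2 or 4 (adjusted p = 0.0586 to 0.0902), and with no filter (0.0548), quantile normalization (0.0545) and the same 4 corrections for GC content and length (0.131 to 0.184).

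Batf3, which can stand in for Batf in some cells, was near the limit of detection. It was 0.191, 0.475, 0.392 and 0.480 FPKM in Nrp-1+ and 0.155, 0, 0 and 0.0994 FPKM in Nrp-1- iTreg, and the groups did not overlap. In steps of 1 fragment these were 2, 5, 5 and 5 against 2, 0, 0 and 1, so Nrp-1+ replicate 1 and Nrp-1- replicate 1 held the same number. The ratio of the sums, 17 against 3, was 5.45 after depth, with an exact 95% interval of 1.58 to 29.0 that covers counting error only. In the fit without the filter on low levels, where 25.8% of genes were called, Batf3 was higher in Nrp-1+ iTreg with a log2 fold change of 0.38 (SE 0.08, adjusted p = 0.0112, exact permutation p = 0.0286). The size depends on the scale, since the log2 fold change was 1.64 with a pseudocount of 0.1, and the call was lost with a block for the replicate number (0.0572) and under the same 4 corrections (0.0555 to 0.152).

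Batf made up 99.0 to 99.6% of the summed FPKM of the 2 BATF genes in Nrp-1+ and 99.7 to 100% in Nrp-1- iTreg, so the family sum followed Batf. The ratio of Junb to Batf was 4.28, 4.35, 4.37 and 4.35 in Nrp-1+ and 3.86, 3.83, 3.79 and 3.43 in Nrp-1- iTreg. All Nrp-1+ libraries were above all Nrp-1- libraries.

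**Figure D4:**
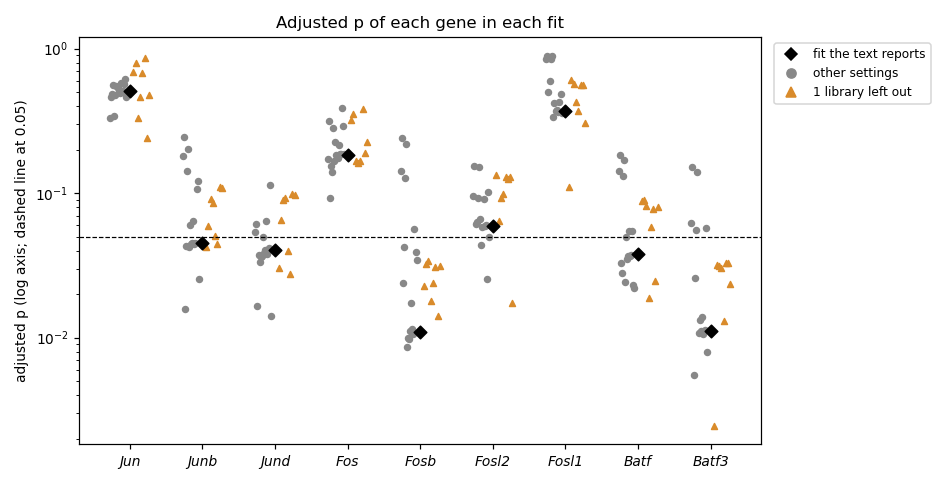
Adjusted p of each gene (vertical log axis, dashed line at 0.05) in the fit the text reports (black diamonds), with other settings (grey circles) and with 1 library left out (orange triangles). For Junb, Jund and Batf the points lie on both sides of the line, for Fosb all 8 triangles lie below it, and for Jun and Fos no point does.

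IRF4, the factor that BATF and JUN dimers bind DNA with, rose while Batf fell. Irf4 was 28.8 ± 0.598 FPKM in Nrp-1+ and 25.6 ± 1.17 FPKM in Nrp-1- iTreg, with no overlap and a log2 fold change of 0.17 (SE 0.03, adjusted p = 0.00584). The call was lost with the same 4 corrections for GC content and length that ended that of Fosb. Irf8 was 19.2 ± 0.874 and 19.1 ± 1.26 FPKM and was not called (log2 fold change 0.01, adjusted p = 0.944). The ratio of Irf4 to Batf was 0.545 to 0.592 in Nrp-1+ and 0.431 to 0.498 in Nrp-1- iTreg.

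Among the other bZIP genes that pair with AP-1 proteins or share their sites, 8 of 20 tested were called, 1 higher and 7 lower. Of all genes tested, 40.9% were called, 20.9% higher and 20% lower. Maff, a small Maf protein without an activating domain, was lower with a log2 fold change of -0.57 (adjusted p = 0.00728), from 5.34 ± 0.626 FPKM in Nrp-1- to 3.31 ± 0.658 FPKM in Nrp-1+ iTreg. Bach1, a repressor that pairs with small Maf proteins, was lower with a log2 fold change of -0.33 (adjusted p = 0.00112), and Ddit3, the stress factor CHOP, with one of -0.28 (adjusted p = 0.0104). Mafg, Mafk, Nfe2l2 (the oxidative stress factor NRF2) and Bach2 were the others called lower, and Atf5 was called higher. The number called lower was 5 to 7 over the 24 alternatives and the number called higher 0 to 2. The median log2 fold change of the list was -0.05, against -0.02 over all genes tested.

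Bach2 represses AP-1 targets in T cells by binding the same sites. Its level was 13.4 ± 0.280 FPKM in Nrp-1+ and 14.4 ± 0.338 FPKM in Nrp-1- iTreg, with no overlap (log2 fold change -0.09, adjusted p = 0.0260), and the call held in 11 of 24 alternatives. The ratio of Batf to Bach2 overlapped between the groups, at 3.65 to 4.03 and 3.69 to 4.12. Jdp2, a repressive Jun partner that lies between Fos and Batf on chromosome 12, was 4.38 ± 0.448 and 4.55 ± 0.395 FPKM and Maf was 5.18 ± 0.463 and 5.18 ± 0.360 FPKM, and neither was called. Batf2 and Atf3 were under the filter, with mean levels of 0.0102 and 0.424 FPKM over all libraries.

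**Figure D5:**
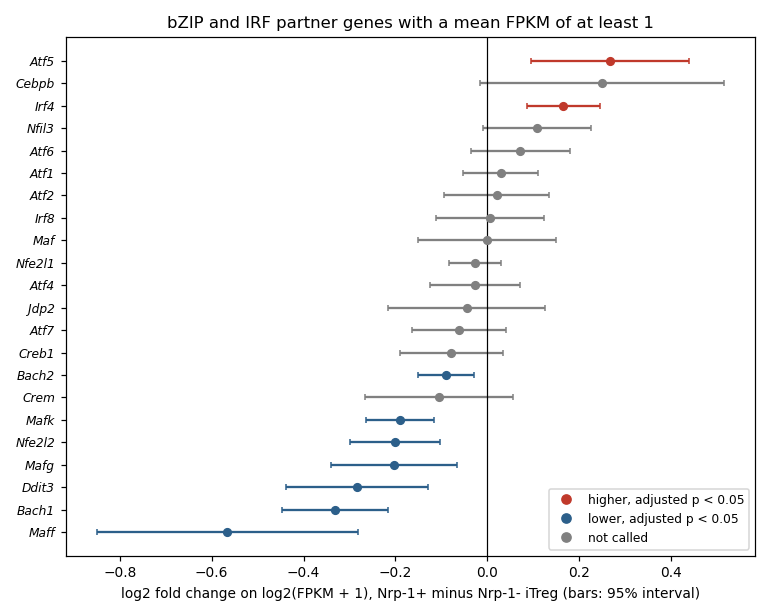
Log2 fold change on the log2(FPKM + 1) scale (horizontal axis), Nrp-1+ minus Nrp-1- iTreg, with 95% intervals from limma, for 20 bZIP genes and 2 IRF genes with a mean of at least 1 FPKM. The 7 genes called lower are in blue with Maff the farthest from 0, and Atf5 and Irf4 are called higher in red.

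In the list of JNK, ERK and p38 kinases and their regulators, which act upstream of AP-1, 6 of 16 tested genes were called (37.5%, against 40.9% of all genes), 3 higher and 3 lower. Mapk8ip3, a JNK scaffold, was lower (log2 fold change -0.34, adjusted p = 0.000688), Map2k3, an activator of p38, was higher (0.17, adjusted p = 0.0133), and Map3k1, upstream of JNK, was lower (-0.17, adjusted p = 0.0152). Of the dual specificity phosphatases, which switch these kinases off, 5 of 8 were called (62.5%, against 40.9% of all genes), 2 higher and 3 lower. Dusp4 was higher (log2 fold change 0.37, adjusted p = 0.00150), and Dusp10 and Dusp7 were lower (-0.28 and -0.23, adjusted p = 0.000580 and 0.00322). Dusp1 was the other one called higher and Dusp5 the other one called lower (0.15 and -0.14, adjusted p = 0.0210 and 0.0419). The call of Dusp1 held in 18 of 24 alternatives and was lost without Nrp-1+ replicate 3 or 4 and without Nrp-1- replicate 2 or 3. That of Dusp5 held in 13 and was lost without Nrp-1+ replicate 1 or 2 and without Nrp-1- replicate 1, 2 or 4. Dusp5 also lost it with no filter, eBayes without trend, array weights and a block for the replicate number. Both lost it with the 2 corrections for GC content and length that kept short RNA genes and had this block.

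SRF and its partners drive the Fos promoter after stimulation. In this list 2 of 8 tested genes were called (25%, against 40.9% of all genes), both lower, where 20% of all genes were lower, namely Srf (log2 fold change -0.17, adjusted p = 0.00893) and Mef2d (-0.23, adjusted p = 0.0117). Of the other immediate early and handling genes, which can rise with Fos and Jun while cells are prepared, 4 of 14 tested were called (28.6%), 2 higher and 2 lower. Ier2 was higher (0.16, adjusted p = 0.00265), Ppp1r15a was lower (-0.34, adjusted p = 4.3e-05) and Btg2 was lower (-0.14, adjusted p = 0.00269). Whether the handling of the cells bears on the levels of the AP-1 genes was not tested.

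Among genes linked to AP-1 or BATF in T cells, 5 of 12 tested were called (41.7%, close to the 40.9% of all genes), 3 higher and 2 lower, and 10 of the 22 in the list were under the filter. Ccr8, a chemokine receptor of effector regulatory T cells, was higher (log2 fold change 0.44, adjusted p = 0.000644), as was Vim, which encodes vimentin (0.31, adjusted p = 1.8e-05). Prdm1, which encodes the repressor Blimp-1, was lower (-0.29, adjusted p = 0.00859). Of the genes under the filter, Il4 was listed at 0 in all 4 Nrp-1+ libraries and at 0.294, 0.121, 0.448 and 0.132 FPKM in the Nrp-1- libraries, so the groups did not overlap. Il1rl1, which encodes the IL-33 receptor ST2, was at 0.341, 0.317, 0.115 and 0.303 FPKM in Nrp-1+ and 0.0405, 0.135, 0.0247 and 0.136 FPKM in Nrp-1- iTreg, and its groups overlapped. Il4 and Il1rl1 were chosen for mention after their values were seen, so they are given with no test. Il2, Il10 and Il21 had mean levels under 0.2 FPKM in both groups, and Il17a was listed at 0 in every library.

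Proteins that degrade AP-1 factors or act as their cofactors gave 4 called genes of 11 tested (36.4%, against 40.9% of all genes), 1 higher and 3 lower. Itch, a ubiquitin ligase for Jun and JunB, was lower (log2 fold change -0.16, adjusted p = 0.00973), as were the coactivators Ncoa1 (-0.15, adjusted p = 0.00652) and Ep300 (-0.13, adjusted p = 0.00649). Over these 8 lists, 35 of 91 tested genes were called, 13 higher and 22 lower. These were 38.5% called, 14.3% higher and 24.2% lower, against 40.9%, 20.9% and 20% of all genes. Among genes named from them with an adjusted p, Srf, Ier2, Irf4 and Bach2 lost their call with 4 corrections for GC content and length. These are the 4 that kept short RNA genes. With the 2 of these that also had the replicate block, Map2k3, Map3k1, Mef2d, Itch, Ncoa1, Ep300, Dusp1 and Dusp5 lost it too. Mef2d, Bach2 and Dusp5 lost it with the block alone, and Ier2 and Vim with quantile normalization. Bach2 also lost it in every fit without short RNA genes.

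The genes whose levels followed those of the leading members most closely over the 8 libraries were named by Pearson's r of log2(FPKM + 1), as a description that mixes the difference between the groups with the spread inside them. For Junb they were Jund (r = 0.982), Zmiz2 (0.979) and Lrrc8d (0.972). Those for Fos were Usp21 (r = 0.971), P2rx4 (0.963) and Senp3 (0.957), and those for Batf were Hist3h2ba (r = 0.963), Leng1 (0.960) and Lpcat4 (0.955). By Pearson's r, Jund was thus the gene most like Junb among all genes tested, by a narrow margin over Zmiz2. By Spearman's rank correlation, Lrrc8d followed Junb more closely (rho = 1) than Jund did (0.952).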

How the data were processed

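RNA had been sequenced on an Illumina instrument and the reads processed on the CLC Genomics Workbench. The authors calculated the FPKM values with Cufflinks and deposited 1 value per gene symbol and library for 4 Nrp-1+ and 4 Nrp-1- iTreg libraries. The submitters' processing notes name GRCm38 (mm10), and the annotation is not given in the sources used here. FPKM divides by length and depth, so the values are not counts and no count model was used. Each library was assigned to its group by its labels.

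The log2(FPKM + 1) values of all genes averaging 1 FPKM or more were fitted with lmFit and eBayes of limma 3.58.1 (R 4.3.3), the variance prior following the mean level, and p-values were adjusted by the Benjamini-Hochberg method over all 10467 genes. A call is an adjusted p under 0.05. Members under the filter were read from a fit of the 16289 genes detected in any library. Exact two-sided permutation tests of mean FPKM are unadjusted. Fold changes on this scale understate the change of low genes. The fit was tested on simulated data with independent noise, in which 200 of 10467 genes were changed. It recovered 94% of 2-fold changes and 22% of changes of 0.15 on the log2 scale, with 5 false calls. In the real data 40.9% of genes were called, so these rates do not carry over to the calls reported here.

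The members, the gene lists and the tests were chosen with earlier results of these data known. The genes named are the 9 members, up to 3 called genes of each list with the largest log2 fold changes, Irf4, Irf8, Bach2, Jdp2, Batf2, Atf3, Maf, Nrp1 and Foxp3, the 3 genes most like the leading member of each family, and, chosen after their values were seen, Il4, Il1rl1, Dusp1, Dusp5, the other called bZIP genes, the genes overlapping members and the markers, of which 1, with the sum of its list, is not reported here. Other pseudocounts (0.1 and 0.5), no filter or one at 5 FPKM, quantile normalization or median-of-ratios scaling, array weights, a constant variance prior (eBayes without trend), a block for the replicate number and leaving out each of 8 libraries were tried as alternatives. Fits without 267 short RNA genes and corrections for transcript GC content and length (GENCODE M21, natural splines with 5 degrees of freedom) were added after the data were seen. Upstream windows are the 250 bases before the RefSeq start, with 8 of the 9 members found in that table. Python 3.11.15 with numpy 2.4.6, pandas 2.3.3, scipy 1.17.1 and matplotlib 3.10.9 was used for the rest.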

Additional observations from a re-analysis of the deposited data

Results flagged for a closer look

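In groups of 4 libraries, the highest or lowest library was set apart from the other 3 by Dixon's test at its 95% critical value of 0.829. Of 80 groups examined, 9 were set apart, and chance alone gives about 1 in 20, or 4. The groups are not independent, since Fos made up 90.8% of the sum of its family in Nrp-1- replicate 2 and both were set apart there. No excess is read from this count. Among the AP-1 genes, Fos was high in Nrp-1- replicate 2 at 137.51 FPKM, as was the sum of the Fos family there at 151.5 FPKM, and Fosl2 was low in Nrp-1- replicate 4 at 2.74 FPKM. Of the related genes, Ddit3 was low in Nrp-1+ replicate 2 at 30.0 FPKM and Ep300 low in Nrp-1+ replicate 3 at 21.8 FPKM. In Nrp-1+ replicate 4, Maff was low at 2.33 FPKM, and Mef2d and Srf were high at 43.7 and 22.6 FPKM. Prdm1 was high in Nrp-1- replicate 1 at 2.97 FPKM.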

How the results depend on the processing

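The number of members called, 4 in the reported fit, ranged from 1 to 3 when 1 library was left out. It was 1 with no filter (Fosb), 2 with quantile normalization (Jund and Fosl2) and 2 with the replicate number as a block (Fosb and Batf). It was 4 to 5 with both other pseudocounts, the higher filter, size factors, eBayes without trend, array weights and without short RNA genes, though without trend Fosl2 took the place of Junb. Same-numbered libraries did not deviate together (r of -0.54, -0.02, 0.01 and -0.50), so the replicate numbers are not taken as pairs.

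The corrections for GC content and length were chosen after the data were seen and took 3 forms, one after the other. With genes matched by current symbol 1 member was called (Jund), with or without the replicate block. Matching older symbols as well, which reached 99.4% of tested genes, left 0 members called with or without the block. Leaving out the short RNA genes too, tried after the calls had been lost, gave 4, with or without the block. The cause of the difference was not tested, and no form is preferred. Of the 91 related genes, 35 were called, and the count changed by over 1.5 times under the first form with the block (18 of 88) and the second form with the block (16).

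No member changed direction in any of the alternatives run. Irf8 and Maf, not called in any fit, crossed 0. Irf8 moved to -0.00945 (quantile normalization), -0.00356 (array weights), -0.00328 and -0.00277 (GC and length, second and first form, each also with the block) and lay at -0.0264 to 0.0340 with libraries left out. Maf moved to 0.0168 (array weights) and 0.00701 (GC and length without short RNA genes, also with the block) and lay at -0.0452 to 0.0399 with libraries left out. Jun and Fos were called in 0 of 24 alternatives, Junb in 10, Batf in 12, Jund in 15 and Fosb in 19, and Fosl2 in 4 of 23. With FPKM, counting error is unknown for all but the lowest genes.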
